A study of Rattus norvegicus with 192 samples.

Results

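The genes described here carry fatty acids into hepatocytes, bind or store them, or belong to the fasting programme: Cd36, Fabp1, Plin2, Angptl4, Vnn1, Creb3l3 and Fgf21. They were chosen by name from the gene symbols of a targeted RNA-seq table with 22253 probes for 21143 symbols. Of the 7 genes, 6 had 1 probe each and were analysed, while Angptl4, a secreted inhibitor of lipoprotein lipase, was not analysed here. All 6 passed the filter on low counts, so every gene with a probe is accounted for in each test.

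The study exposed primary hepatocytes of male rats, cells taken from the liver and kept on collagen, to chemicals for 24 h. TempO-Seq, in which a pair of detector oligos is ligated on its target RNA and counted by sequencing, gave 192 libraries. There were 29 test chemicals at 6 doses with 1 library per dose, of which 16 had a highest dose of 100 µM and 13 a highest dose of 33.3 µM and both series had steps of 33.3, 11.1, 3.7, 1.2 and 0.4 µM, the second ending at 0.14 µM. Single libraries were made for 9 reference chemicals: dexamethasone, 17beta-estradiol and testosterone at 10 µM, WY-14,643 and Pregnenolone 16alpha carbinonitrile at 15 µM, oltipraz at 30 µM, sulforaphane at 10 µM, and TCPOBOP and GW4046 at 1.5 µM. The vehicle, 0.1% DMSO, which all treated wells also received, had 9 libraries, 3 on each of 3 plates. No strain or age is given in the sources used here, and nothing states that wells came from separate animals. The p-values of single dose libraries and reference libraries measure the spread between these DMSO wells, which may be technical. Those of dose trends and pairs of chemicals also measure the scatter of the dose libraries about the fitted line, which may be technical too. Values are counts scaled to the library total (CPM), with the lowest, median and highest of DMSO replicates 2 to 9 given as the DMSO range.

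CD36 is a membrane protein that takes up long-chain fatty acids and lipoprotein lipids, and FABP1 is the abundant fatty acid binding protein of the liver cytosol. PLIN2 coats lipid droplets and is stabilised by stored fat, and VNN1, pantetheinase, recycles vitamin B5 from the breakdown of coenzyme A. CREB3L3 is a membrane-bound transcription factor of liver and intestine that is released by cleavage in fasting, and FGF21 is a fasting and stress hormone secreted by the liver. All are known targets of PPAR alpha, the nuclear receptor that senses fatty acids and switches on their oxidation, while Fgf21 also answers to ATF4 in the integrated stress response and Cd36 also to PXR.

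The RefSeq tables held promoter windows of 300 bases around a transcription start in assembly GRCr8 for 6 of the 7 genes. They were searched on both strands for AGGTCANAGGTCA, the direct repeat bound by PPAR alpha with RXR, with up to 2 mismatches, and for TGATGCAA, an element bound by ATF4 with C/EBP, with none. The first was found in 3.77% and the second in 0.795% of all 33469 promoters of the tables, and a match is a description of letters, not a site of binding. Fabp1 at chr4:104749090-104749389 and Creb3l3 at chr7:9273070-9273369 are shown for the first motif, and Fgf21 at chr1:105221327-105221626 for the second. Cd36 at chr4:18246332-18246631 is shown because it had neither motif, as the gene whose levels ranged most widely relative to DMSO. Capitals mark the match; Fgf21 lies on the minus strand, the others on the plus strand.
Fabp1: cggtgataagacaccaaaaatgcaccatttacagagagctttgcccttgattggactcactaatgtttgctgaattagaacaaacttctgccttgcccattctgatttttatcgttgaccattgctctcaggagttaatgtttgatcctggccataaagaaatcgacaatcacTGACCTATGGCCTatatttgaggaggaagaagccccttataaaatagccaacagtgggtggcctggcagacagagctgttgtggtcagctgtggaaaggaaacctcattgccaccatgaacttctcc
Creb3l3: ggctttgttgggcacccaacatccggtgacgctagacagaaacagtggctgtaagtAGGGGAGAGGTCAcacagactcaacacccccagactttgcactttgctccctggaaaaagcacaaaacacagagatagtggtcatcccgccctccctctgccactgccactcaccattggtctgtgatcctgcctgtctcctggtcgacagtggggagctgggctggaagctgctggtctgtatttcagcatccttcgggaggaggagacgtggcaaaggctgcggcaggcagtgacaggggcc
Fgf21: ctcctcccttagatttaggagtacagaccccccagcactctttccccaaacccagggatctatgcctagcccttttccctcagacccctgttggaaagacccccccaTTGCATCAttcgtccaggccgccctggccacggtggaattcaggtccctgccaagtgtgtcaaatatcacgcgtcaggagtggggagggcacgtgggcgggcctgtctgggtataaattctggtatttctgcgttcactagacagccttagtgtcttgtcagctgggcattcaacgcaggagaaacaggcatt
Cd36: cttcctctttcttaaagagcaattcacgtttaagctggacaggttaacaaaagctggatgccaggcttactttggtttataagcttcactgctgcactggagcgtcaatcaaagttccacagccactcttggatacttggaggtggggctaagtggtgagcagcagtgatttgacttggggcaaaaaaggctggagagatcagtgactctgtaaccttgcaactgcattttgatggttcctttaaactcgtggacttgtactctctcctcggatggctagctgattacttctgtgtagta
The Fabp1 match, with 1 mismatch, lay on the opposite strand 77 to 65 bases before the start, and the Creb3l3 match, with 2 mismatches, on the same strand 194 to 182 bases before it. In Fgf21 the match lay on the opposite strand 143 to 136 bases before the start. The 2 windows of Plin2 held neither motif, and the windows of Cd36, Fabp1 and Plin2 lie within the annotated spans of their genes, so they belong to inner starts.

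Library totals had a median of 5745085 counts and ran from 582071, in the sulforaphane library, up to 11249014; the DMSO libraries held 2876741 to 8513985. All 14 hepatocyte markers were detected, and their summed level was 37020 to 60170 CPM in DMSO. DMSO replicate 5 alone set the upper end of that range, the next highest being 40820 CPM in DMSO replicate 7. Ttr averaged 17550 CPM of the sum in DMSO, against 5936 CPM for Ahsg and 81.67 CPM for Hnf4a, so Ttr weighs most in it. Of 7 adipocyte markers, Lep, Retn and Lipe were at 0 counts in all 8 DMSO libraries and only Fabp4, at a mean of 136.7 CPM, was well above 0. DMSO replicate 1 stood apart: it had 84.5 CPM of Plin2, 236 CPM of Vnn1, 20.9 CPM of Fabp1, 1.09 CPM of Creb3l3 and 5.27 CPM of Fgf21, each outside the range of the other 8, and it was left out of the fits. With all 9 DMSO libraries, 2 of the 27 dose trends, 4 of the 12 reference calls and 2 of the 6 pair differences given below kept their call and the others were lost, and 13 of 58 calls of single dose libraries were made. DMSO replicate 5 also departed from its plate, with the lowest Fabp1, Vnn1 and Creb3l3 of the 8 and the highest Plin2 and Fgf21. In addition, 13 dose libraries shared a profile, scored over probes of other genes, in which Cd36 was low out of dose order. The score follows the direction in which Bisphenol A at 3.7 µM, 1 of the 13, departs from Bisphenol A at 0.14 and 1.2 µM. These libraries are described with Cd36. In bulk RNA, fewer cells of a type and less RNA per cell cannot be told apart.

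Under DMSO, Cd36 averaged 135 ± 17.4 CPM, Fabp1 96.6 ± 22 CPM, Plin2 762 ± 61.8 CPM, Vnn1 94.2 ± 10.3 CPM, Creb3l3 5.86 ± 2.01 CPM and Fgf21 32.1 ± 6.01 CPM (SD, n = 8). Across the dose libraries of all 29 chemicals, Cd36 had the widest range relative to DMSO, 1.33 to 407 CPM with a median of 92.4 CPM, and 118 libraries lay below the lowest DMSO library. Fgf21 also lay below it in 118 libraries, with 2.37 to 46.5 CPM and a median of 24.5 CPM. Fabp1 went the other way, with 36 libraries above the DMSO range, 6 below it, and a median of 105 CPM in 30.4 to 384 CPM. Plin2, at 186 to 1696 CPM, was above the DMSO range in 18 libraries and below in 66, and Vnn1, at 3.73 to 228 CPM, above in 24 and below in 65. Creb3l3, at 0 to 11.7 CPM, stayed within the DMSO range in most libraries, with 8 above and 8 below.

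**Figure D1:**
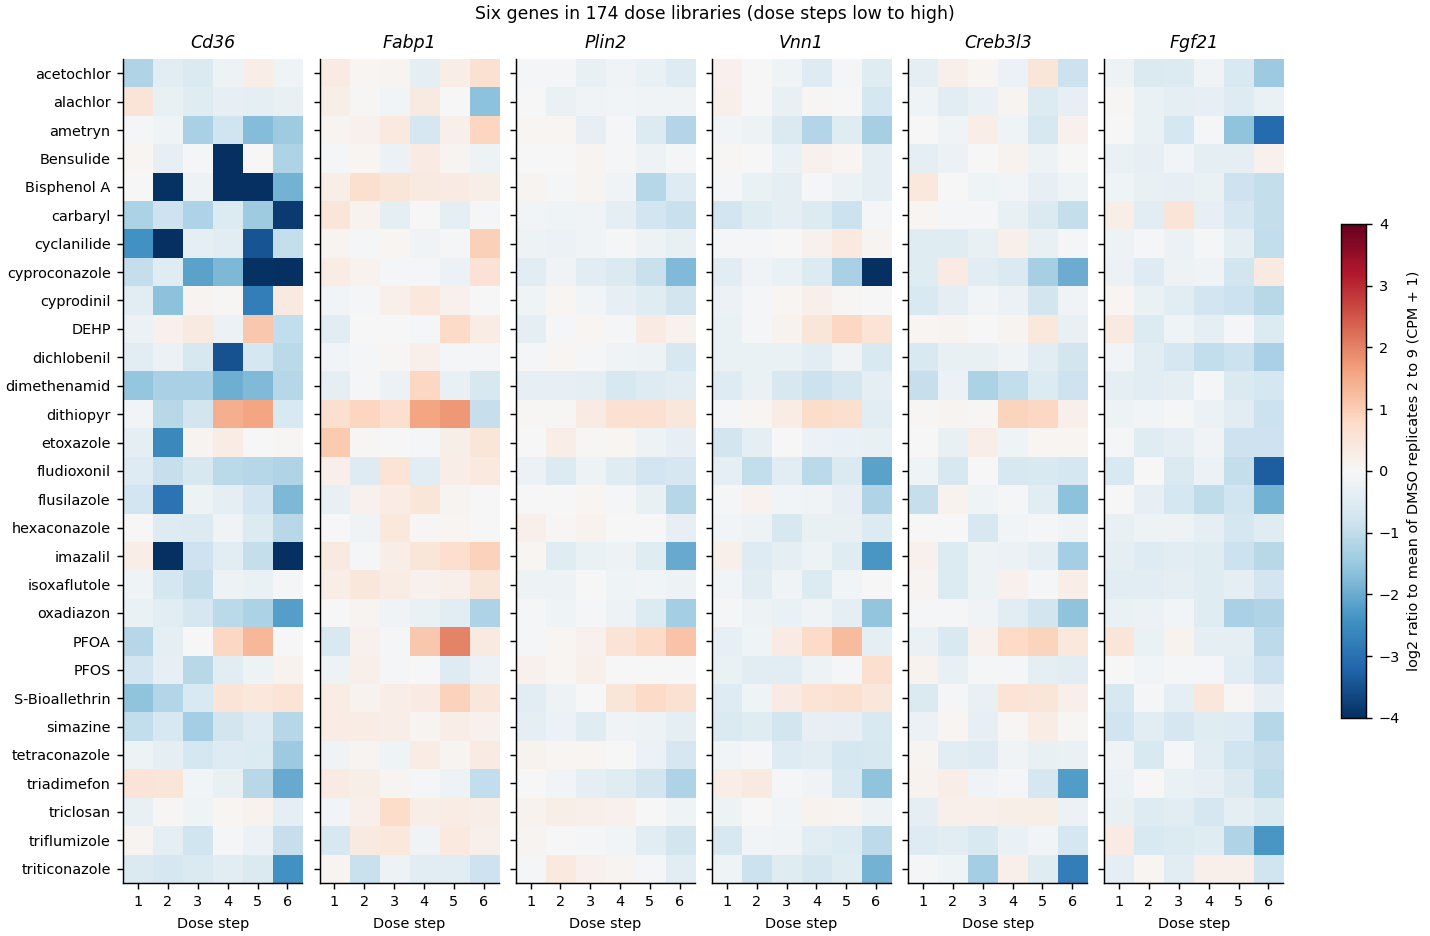
Each cell is 1 library, coloured by its log2 ratio (CPM + 1) to the mean of DMSO replicates 2 to 9; rows are the 29 test chemicals and columns the 6 dose steps from low to high, with colours stopping at a ratio of 4 log2 units either way. Red cells gather in PFOA, S-Bioallethrin and dithiopyr, Cd36 and Fgf21 are mostly blue, and isolated dark cells of Cd36 lie at low dose steps of Bisphenol A, cyclanilide, imazalil and flusilazole.

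A dose trend was fitted per gene and chemical with edgeR's quasi-likelihood test on log2(1 + dose), with plate as a factor, and is given as its fitted change from DMSO to 33.3 µM in log2 units ± SE. Calls are at an adjusted p (Benjamini-Hochberg over 11055 probes) below 0.05. Over the 6 genes and 29 chemicals, 5 trends rose and 22 fell, in 13 of the 29 chemicals, where over all probes 0.95% of trends rose and 0.713% fell. Estimates were below 0 in 130 trends and above it in the others, and the fits share the DMSO libraries, so they do not repeat each other. Cd36 rose in 0 and fell in 5 chemicals (1 and 13 at an unadjusted p below 0.05, and 1 and 10 with DESeq2), with a median estimate of -0.86 over the 29. Fgf21 rose in 0 and fell in 5 (0 and 20 unadjusted, 0 and 9 with DESeq2), with a median of -0.77 and 27 of 29 estimates below 0. Plin2 rose in 2 and fell in 6, Vnn1 rose in 1 and fell in 6, and Fabp1 rose in 2 and fell in 0 (5 and 4 unadjusted, 2 and 1 with DESeq2). Creb3l3 rose in 0 and fell in 0 with edgeR, against 2 and 5 at an unadjusted p below 0.05 and 1 and 3 with DESeq2, and its estimates ran from -1.66 to 1.26.

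PFOA, a perfluorinated carboxylic acid known as a PPAR alpha activator in rodents, raised Plin2 and Fabp1. Plin2 had 729, 813, 852, 1122, 1289 and 1696 CPM from 0.4 to 100 µM, against 663, 769 and 860.0 CPM in DMSO. The 3 highest doses lay above all DMSO libraries, and the trend was 1.05 ± 0.14 (adjusted p = 0.00103). Fabp1 had 62.4, 110, 92.3, 204, 384 and 124 CPM, against 59.1, 102 and 124 CPM in DMSO. It peaked at 33.3 µM and was within the DMSO range at 100 µM, with a trend of 1.47 ± 0.33 (adjusted p = 0.027). Vnn1 peaked in the same way, with 74.2, 83.1, 118, 161, 228 and 72.5 CPM, against 73, 97.5 and 105 CPM in DMSO, and so did Cd36, with 60.0, 106, 137, 242, 340.1 and 136 CPM, against 111, 132 and 171 CPM. Creb3l3 had 4.74, 3.53, 6.8, 11, 11.7 and 8.24 CPM, against 1.74, 6.15 and 8.22 CPM in DMSO. Fgf21 had 45.5, 26.8, 35.2, 24.9, 24.2 and 15.2 CPM, against 26.7, 30.7 and 42.8 CPM, so its last 3 doses lay below DMSO while Plin2 was above it. In the PFOA fit, 2.58% of all probes rose. The 100 µM library was 1 of the 13 of the shared profile. It also shared the profile of DMSO replicate 5, the DMSO library with the highest Plin2, with a score of 1.83 where above 0.5 was called high. Without the 100 µM library, Plin2 rose by 0.75 (adjusted p = 0.0143) and Cd36 by 1.38 (adjusted p = 0.0489). Vnn1 then rose by 1.44 and Fabp1 by 2.03 (adjusted p = 0.00169). The Fabp1 call was lost without DMSO replicate 4 or the 1.2 or 33.3 µM library, at adjusted p of 0.05 to 0.0717. At 100 µM, hepatocyte markers (49908 CPM) were within the DMSO range. Stellate (16.5 CPM), bile duct (10.4 CPM) and macrophage markers (44.7 CPM) were below DMSO ranges of 50.4 to 87.94, 25.38 to 53.97 and 58.4 to 91.69 CPM. The part of these markers was not tested.

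S-Bioallethrin, a pyrethroid insecticide, raised Plin2 and Vnn1. Plin2 had 558, 668, 765, 1062, 1302 and 1166 CPM from 0.4 to 100 µM, against 663, 769 and 860.0 CPM in DMSO, a trend of 0.68 ± 0.15 (adjusted p = 0.0203). Vnn1 had 65.6, 82.7, 119, 137, 145 and 129.5 CPM, against 73, 97.5 and 105 CPM, a trend of 0.70 ± 0.15 (adjusted p = 0.0197). Both lay below the lowest DMSO library at 0.4 µM and above the highest at the 3 highest doses. Cd36 was also below the DMSO range at the lowest doses, as in many other chemicals of plate 2. At the 3 highest doses it lay above that range, without a call. Its values were 43.1, 58.8, 88.1, 194, 181 and 199 CPM, against 111, 132 and 171 CPM in DMSO. In this fit 1.44% of all probes rose. Both calls were lost without the 33.3 µM library, and that of Plin2 without DMSO replicate 4, at adjusted p of 0.0538 to 0.129. At 100 µM, hepatocyte markers were 35737 CPM, against 37020 to 60170 CPM in DMSO. Endothelial markers were 9.18 CPM there, against 14.18 to 21.49 CPM, and the part of these markers was not tested.

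Dithiopyr, a pyridine herbicide, gave the highest Cd36 of any dose library but no trend called by edgeR; DESeq2 called a rise of Plin2 and a fall of Fgf21. From 0.14 to 33.3 µM, Cd36 had 124, 61.7, 80.2, 368, 407 and 87.5 CPM, against 111, 132 and 171 CPM in DMSO. Tested as single libraries, 3.7 and 11.1 µM were higher by 1.45 ± 0.19 (adjusted p = 0.0387) and 1.55 ± 0.19 (adjusted p = 0.0132). Fabp1 had 151, 175, 155, 294, 327 and 51 CPM in the same libraries, against 59.1, 102 and 124 CPM in DMSO, so 5 doses lay above DMSO and the highest dose below it. Plin2 alone stayed high at 33.3 µM, with 780.4, 783, 958, 1160.2, 1176 and 1054 CPM, against 663, 769 and 860.0 CPM. The summed hepatocyte markers of the 33.3 µM library were 17658 CPM, below the DMSO range of 37020 to 60170 CPM, and their part in the drop at that dose was not tested. DEHP, a phthalate plasticiser, had Vnn1 of 77.9, 91.9, 103, 133, 169.7 and 138 CPM from 0.4 to 100 µM, a trend of 0.64 ± 0.13 that missed the threshold (adjusted p = 0.0691).

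Cyproconazole, a triazole fungicide, gave the steepest fitted decline of Cd36, though single libraries of Bisphenol A and imazalil were lower still. Cd36 had 69.8, 95.4, 29.5, 38.3, 7.82 and 5.97 CPM from 0.4 to 100 µM, against 111, 132 and 171 CPM in DMSO, all 6 below the DMSO range, with a trend of -3.56 ± 0.33 (adjusted p = 0.00015). The last value rests on 8 counts, a 95% exact binomial interval of 2.58 to 11.8 CPM that covers counting error only. At 0.4 µM, many other chemicals of plate 2 also had Cd36 below the DMSO range. Plin2 had 570.3, 696, 572, 515, 408 and 224 CPM, against 663, 769 and 860.0 CPM, and fell by 1.17 on the log2 scale (SE 0.16, adjusted p = 0.00206). Vnn1 held 69.5, 85, 79, 64.8, 37.9 and 3.73 CPM, against 73, 97.5 and 105 CPM in DMSO, and fell by 1.73 (SE 0.40, adjusted p = 0.0169). Fabp1 did not follow them: it had 118, 107, 93.5, 92.6, 82.3 and 145 CPM, against 59.1, 102 and 124 CPM. In this fit 3.11% of all probes fell, and the 3 calls held when any 1 DMSO or dose library was left out. The 100 µM library had 22012 CPM of hepatocyte markers, against 37020 to 60170 CPM in DMSO, and 40.3 CPM of endothelial markers, against 14.18 to 21.49 CPM, and their part in the result was not tested.

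Triticonazole and triadimefon, also triazole fungicides, gave lower Cd36 and Vnn1 trends. With triadimefon the decline lay mainly at the upper doses. With triticonazole neither gene fell in dose order from 0.4 to 33.3 µM, and only the 100 µM library was much lower. Without that library the fitted changes were -0.72 for Cd36 and -0.57 for Vnn1. Cd36 was already below the DMSO range at 0.4 µM of triticonazole, as in many other chemicals of plate 2. Under triticonazole, Cd36 had 89.1, 83.6, 89.8, 98.4, 89.7 and 24.4 CPM from 0.4 to 100 µM, against 111, 132 and 171 CPM in DMSO, a trend of -1.28 ± 0.29 (adjusted p = 0.0312). Its Vnn1 had 83.4, 51.4, 67.8, 59, 67 and 24.6 CPM, against 73, 97.5 and 105 CPM, a trend of -1.0 ± 0.22 (adjusted p = 0.029), where 2.14% of all probes fell. Creb3l3 had 5.46, 5.08, 1.68, 6.94, 3.92 and 0 CPM, and the 0 at 100 µM, in 3695975 counts, allows up to 0.812 CPM, at least 7.22-fold lower than the DMSO mean. Under triadimefon, Cd36 lay above the DMSO range at the 2 lowest doses and below it at the 3 highest, with 194, 189.8, 124, 109, 62.5 and 32.8 CPM and a trend of -1.41 ± 0.28 (adjusted p = 0.0193). Plin2 had 755, 704, 597, 539.9, 458 and 323 CPM there, a steady decline of -0.89 ± 0.11 (adjusted p = 0.00049). Vnn1 had 114, 122, 88.8, 86.1, 61.2 and 30.4 CPM, a trend of -1.01 ± 0.22 (adjusted p = 0.0365), where 0.398% of all probes fell. At 100 µM the hepatocyte markers summed to 33412 CPM with triticonazole and 23727 CPM with triadimefon, against 37020 to 60170 CPM in DMSO, and the macrophage markers to 109.6 CPM with triticonazole, against 58.4 to 91.69 CPM, and their part was not tested. The Plin2 call held when any 1 library was left out. The triticonazole libraries of 1.2, 11.1, 33.3 and 100 µM shared the profile of DMSO replicate 5 (score above 0.5), and without them and that replicate both calls were lost, Cd36 at -1.71 (adjusted p = 0.165) and Vnn1 at -1.19 (adjusted p = 0.148). They were also lost without DMSO replicate 4 or 6 or the 100 µM library, and also, for Cd36, without DMSO replicate 8 or the 3.7 µM library and, for Vnn1, without 11.1 µM (adjusted p 0.0502 to 0.33). For triadimefon, Cd36 was lost without 33.3 or 100 µM (0.0566 to 0.461) and Vnn1 without DMSO replicate 2, 3, 4 or 8 or any dose but 11.1 µM (0.0513 to 0.64).

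Oxadiazon, an oxadiazole herbicide that inhibits protoporphyrinogen oxidase, gave the most even decline of Cd36. The 6 doses from 0.4 to 100 µM had 113, 97.1, 83.7, 63.8, 55.9 and 28.5 CPM, against 111, 132 and 171 CPM in DMSO, a trend of -1.64 ± 0.15 (adjusted p = 4.64e-05). Plin2 had 727, 673, 727, 665, 525 and 295 CPM, a trend of -0.86 ± 0.16 (adjusted p = 0.0184), and Fgf21 26.5, 27.4, 29.8, 22.6, 12.4 and 13.4 CPM, a trend of -1.14 ± 0.22 (adjusted p = 0.0199). In this fit 0.841% of all probes fell. The 100 µM library had 24137 CPM of hepatocyte markers, against 37020 to 60170 CPM in DMSO, and 31 CPM of endothelial markers, against 14.18 to 21.49 CPM, and their part was not tested. The Cd36 call held without any 1 library; Plin2 was lost without 100 µM (-0.50, adjusted p = 0.552) and Fgf21 without 33.3 or 100 µM (0.0509 to 0.337).

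Imazalil, an imidazole fungicide, moved the genes in both directions. Fabp1 had 124, 91, 115, 136, 153 and 186 CPM from 0.14 to 33.3 µM, against 59.1, 102 and 124 CPM in DMSO, and rose by 0.87 ± 0.25 (adjusted p = 0.0382), where 7.68% of all probes rose. Plin2 had 813, 542, 629, 668, 550.2 and 186 CPM, a trend of -1.19 ± 0.33 (adjusted p = 0.0344), and Vnn1 108, 66.3, 72.8, 81.2, 67.4 and 17.8 CPM, a trend of -1.60 ± 0.37 (adjusted p = 0.02), where 2.87% fell. Cd36 was at 1.36 CPM at 33.3 µM. That library had 17515 CPM of hepatocyte markers, below the DMSO range of 37020 to 60170 CPM, and 158 CPM of macrophage markers against 58.4 to 91.69 CPM in DMSO, and the part of these in the result was not tested. All 3 calls were lost without it, with Plin2 at -0.33 and Vnn1 at -0.70 (adjusted p 1 each). Fabp1 was also lost without DMSO replicate 2 or 8 or the 0.4 or 1.2 µM library, the first of these doses being 1 of the 13 of the shared profile, and Plin2 without DMSO replicate 2 or 8 or 0.14 or 1.2 µM, at adjusted p from 0.0518.

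Fgf21 fell in 5 chemicals, of which flusilazole, triflumizole, dichlobenil and cyprodinil are added to oxadiazon here. Under triflumizole, an imidazole fungicide, it had 40.2, 20.6, 21.7, 22.7, 13.4 and 5.6 CPM from 0.14 to 33.3 µM, against 26.7, 30.7 and 42.8 CPM in DMSO. That was the largest called decline of the hormone, -2.13 ± 0.39 (adjusted p = 0.0244), where 0.235% of all probes fell. Hepatocyte markers at the highest dose were 34158 CPM with flusilazole and 35898 CPM with cyprodinil, just below the DMSO range of 37020 to 60170 CPM, and their part was not tested. Flusilazole, a silicon-containing triazole, gave 31.6, 25.2, 19.4, 15.6, 18 and 7.9 CPM of Fgf21, a trend of -1.65 ± 0.30 (adjusted p = 0.0172), and lowered Vnn1 by -1.10 ± 0.20 (adjusted p = 0.0171), to 40.4 CPM at 33.3 µM, where 0.398% of all probes fell. Dichlobenil, a nitrile herbicide, gave 29.5, 23.6, 19.8, 15.8, 17.2 and 12.5 CPM from 0.4 to 100 µM, a trend of -1.16 ± 0.21 (adjusted p = 0.0312), where 0.118% fell. Cyprodinil, an anilinopyrimidine fungicide, gave 33.6, 26.6, 23, 18.5, 17.2 and 14.3 CPM, a decline at every step with a trend of -1.05 ± 0.19 (adjusted p = 0.0271), beside a Plin2 trend of -0.61 ± 0.11 (adjusted p = 0.0219), where 0.0543% fell. The 100 µM library of carbaryl, a carbamate insecticide, was 1 of the 13 of the shared profile, in which Cd36 was low out of dose order. Carbaryl lowered Plin2, to 412 CPM at 100 µM, a trend of -0.70 ± 0.11 (adjusted p = 0.0246), where 0.0362% fell. DESeq2 also called its Cd36 trend, and Cd36 was lower in the single libraries of 33.3 µM (-1.51 ± 0.21, adjusted p = 0.0284) and 100 µM (-4.07 ± 0.26, adjusted p = 0.000103).

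Leaving out single libraries ended most of these calls. None held once the highest dose was left out (adjusted p 0.134 to 1), though the fitted changes stayed close for Fgf21 of dichlobenil (-1.28) and cyprodinil (-1.16) and Plin2 of carbaryl (-0.69) and cyprodinil (-0.57). Further losses, at adjusted p from 0.0504, came without DMSO replicate 2 (Fgf21 of flusilazole, triflumizole and dichlobenil), DMSO replicates 3 and 4 (dichlobenil), DMSO replicate 6 (Fgf21 of cyprodinil and dichlobenil, Plin2 of carbaryl), DMSO replicate 8 (Plin2 of cyprodinil), 1.2 µM (carbaryl), 3.7 µM (dichlobenil), 11.1 µM (triflumizole, dichlobenil and both genes of cyprodinil) and 33.3 µM (dichlobenil, cyprodinil and carbaryl). Without the libraries of the shared profile, the calls of carbaryl, cyprodinil and dichlobenil were lost too (adjusted p 0.064 to 0.149).

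**Figure D2:**
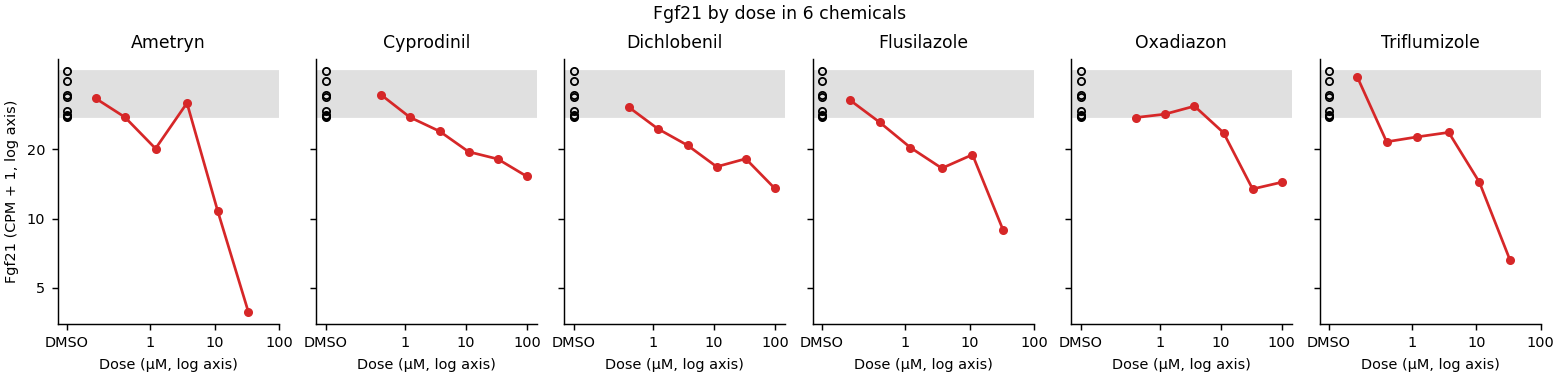
Fgf21 (CPM + 1, log axis) against dose (µM, log axis) in 6 chemicals, with the 8 DMSO libraries as open circles and their range as a grey band. Each of the 6 courses starts within or just under the DMSO band of 26.7 to 42.8 CPM and ends below it, and ametryn ends lowest, at 2.94 CPM.

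Ametryn, a triazine herbicide, lowered Cd36 and Vnn1. Cd36 had 128, 120.0, 54.8, 77.8, 39.8 and 49.3 CPM from 0.14 to 33.3 µM, against 111, 132 and 171 CPM in DMSO, a trend of -1.61 ± 0.29 (adjusted p = 0.0256), and Vnn1 87.6, 82.1, 62.8, 41.6, 67 and 37.1 CPM, a trend of -1.24 ± 0.24 (adjusted p = 0.0336), where 0.498% of all probes fell. Fgf21 had 32.3, 26.6, 19.2, 30.8, 9.81 and 2.94 CPM, and its trend of -2.60 ± 0.57, the steepest of the hormone, just missed the threshold (adjusted p = 0.0509). The 33.3 µM library had 31020 CPM of hepatocyte markers, against 37020 to 60170 CPM in DMSO. Its stellate markers were at 8.04 CPM, against 50.4 to 87.94 CPM, and the part of these markers was not tested. Cd36 was lost without DMSO replicate 2 or 3 or 0.14, 11.1 or 33.3 µM (adjusted p 0.0519 to 0.247), and Vnn1 without DMSO replicate 2, 3, 4, 7, 8 or 9 or 0.14, 0.4 or 33.3 µM (0.0514 to 0.461).

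Tested 1 library at a time against DMSO, 6 of 1044 values were higher and 52 lower, where over all probes and dose libraries 0.344% were higher and 0.573% lower. Cd36 made up 33 of the 52, of which 10 were at a highest dose. The lower values of the other genes were mostly at the highest dose of their chemical, 6 of 7 for Plin2, 7 of 7 for Vnn1, 2 of 2 for Creb3l3 and 3 of 3 for Fgf21. Fabp1 was lower in 0 libraries (8 at an unadjusted p below 0.05). The 3 of Fgf21 were ametryn at 33.3 µM (-3.36 ± 0.46, adjusted p = 0.0129), fludioxonil at 100 µM (-3.90 ± 0.49, adjusted p = 0.00251), where it had 2.37 CPM, and triflumizole at 33.3 µM (-2.39 ± 0.42, adjusted p = 0.0488). The 6 higher values were Cd36, Fabp1 and Vnn1 with PFOA at 33.3 µM, Plin2 with PFOA at 100 µM, and Cd36 with dithiopyr at 3.7 and 11.1 µM.

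Many low values of Cd36 lay out of dose order. In 37 dose libraries of 18 chemicals Cd36 was under 55.7 CPM, which is 0.5 times the lowest DMSO library, and 10 of these were at a highest dose. Bisphenol A had 134, 7.71, 116, 3.37, 1.33 and 35.4 CPM from 0.14 to 33.3 µM, and cyclanilide 24.3, 5, 106, 101, 11.4 and 68.7 CPM from 0.4 to 100 µM, with no order by dose. The value of 5.02 CPM under imazalil at 0.4 µM lay between 163 and 75.6 CPM at the neighbouring doses. Of the 37 libraries, 12 were among the 13 of the shared profile. In those 13, Cd36 was 1.33 to 136 CPM with a median of 8.62 CPM, and it lay below the DMSO range in 12. The score was built from Bisphenol A at 3.7 µM, low in Cd36, against 0.14 and 1.2 µM, where Cd36 was not low. That choice partly fixes the low Cd36 of the 13, 1 of which is the 3.7 µM library. Vmp1, a gene of autophagosome and lipid droplet formation named after its values were seen, was 1.59 to 15 CPM in the 13, against 70.6 to 332 CPM in DMSO. Ndufa5, of respiratory complex I, and Copb2, of the COPI coat, were also below DMSO in all 13, which the score's construction partly fixes since it used these probes. Fabp1 was 91 to 149.7 CPM in the same 13, with none below DMSO, and Vnn1 66.3 to 124 CPM. Without these libraries, Cd36 was lower in 21 single libraries, and its trends rose with PFOA and fell in 7 chemicals, Bisphenol A (-1.94, adjusted p = 0.00418) and dichlobenil (-0.89, adjusted p = 0.0223) being added. The Bisphenol A trend then rests on 0.14, 1.2 and 33.3 µM, at 134, 116 and 35.4 CPM, so on 1 low library. It is also the chemical from which the score was built. Whether the low Cd36 of the 13 belongs to the wells or to their processing was not tested.

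**Figure D3:**
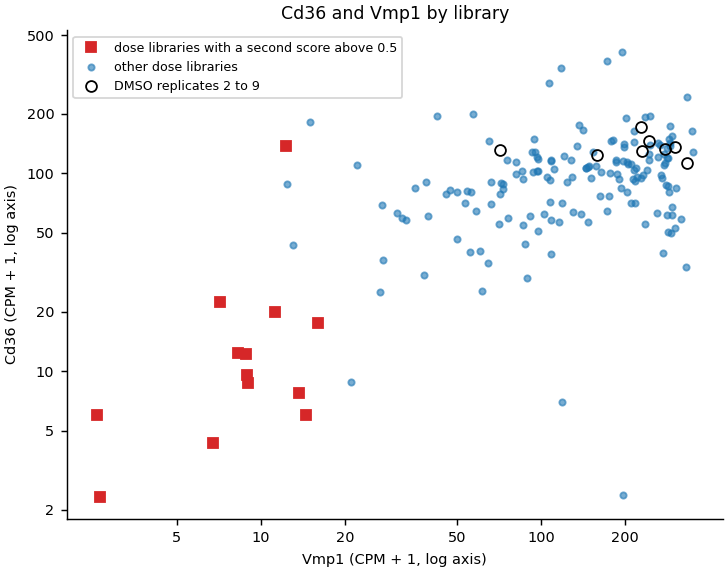
Cd36 against Vmp1 (CPM + 1, log axes) with 1 point per library, coloured by whether it belongs to the 13 dose libraries of the shared profile, to the other dose libraries or to DMSO. The 13 form a group of 1.59 to 15 CPM of Vmp1, with Cd36 below the DMSO range of 111 to 171 CPM in 12.

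Among the reference libraries, WY-14,643, a PPAR alpha agonist, gave the highest Cd36 and Fabp1 of the study. Cd36 was 1266 CPM, against 111, 132 and 171 CPM in DMSO, higher by 3.0 ± 0.16 on the log2 scale (adjusted p = 1.81e-05). Fabp1 was 1557 CPM, against 59.1, 102 and 124 CPM, higher by 3.96 ± 0.28 (adjusted p = 9.03e-05), and Vnn1 was 378 CPM, against 73, 97.5 and 105 CPM, higher by 1.98 ± 0.17 (adjusted p = 0.000364). These are 3 of the 6 genes in a library where 0.461% of all probes were higher. Plin2, at 1551 CPM (0.86 ± 0.17, adjusted p = 0.0749), and Creb3l3, at 19.5 CPM (1.92 ± 0.45, adjusted p = 0.162), lay above all DMSO libraries without a call by edgeR, while DESeq2 called both. Its hepatocyte markers summed to 24611 CPM, below the DMSO range of 37020 to 60170 CPM, and their part was not tested. Fgf21 was 31.1 CPM, within the DMSO range of 26.7 to 42.8 CPM, with a difference of -0.26 and a 95% interval of -0.90 to 0.39. With all 9 DMSO libraries, the Cd36 and Fabp1 calls held at adjusted p of 0.011 and 0.0214.

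Oltipraz, a dithiolethione known to activate NRF2, lowered Fgf21 and Plin2. Fgf21 was 2.48 CPM, against 26.7, 30.7 and 42.8 CPM in DMSO (-3.96 ± 0.49, adjusted p = 0.00612), and Plin2 378 CPM, against 663, 769 and 860.0 CPM (-1.26 ± 0.19, adjusted p = 0.0133), where 0.868% of all probes were lower. Pregnenolone 16alpha carbinonitrile, a rodent PXR agonist, had 8.17 CPM of Fgf21 (-2.23 ± 0.39, adjusted p = 0.0317) and 81.0 CPM of Cd36 (-1.02 ± 0.20, adjusted p = 0.0447), where 1.03% of probes were lower. Its Cd36 call was lost without any 1 of DMSO replicates 2, 3, 4, 6, 7, 8 and 9 (adjusted p 0.0558 to 0.11), and its Fgf21 call without 2, 3, 4, 8 or 9 (0.06 to 0.0713). The hepatocyte markers summed to 21990 CPM with oltipraz and 20665 CPM with Pregnenolone 16alpha carbinonitrile, against 37020 to 60170 CPM in DMSO, and their part was not tested. GW4046 had 9.82 CPM of Fgf21 (-1.93 ± 0.41, adjusted p = 0.0685). For dexamethasone, 17beta-estradiol, testosterone, TCPOBOP and GW4046, each tested with 1 library, 0 of the 6 genes were called with edgeR, while 25 of all 54 reference estimates had an unadjusted p below 0.05 and DESeq2 called Fgf21 for GW4046.

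Sulforaphane, the isothiocyanate of broccoli, gave the shallowest library and the most calls, 9.93% of all probes higher and 18.5% lower. Fabp1 was 582 CPM, against 59.1, 102 and 124 CPM in DMSO (3.05 ± 0.29, adjusted p = 0.000169), the only member above DMSO. Cd36 had 0 of 582071 counts, which allows up to 5.15 CPM, at least 26.1-fold lower than the DMSO mean of 135 CPM. Creb3l3 also had 0 counts, but the same limit lies within its DMSO range, so a difference was not detectable at this depth. Plin2 was 215 CPM (-1.49 ± 0.21, adjusted p = 0.000971), Vnn1 20.6 CPM (-1.71 ± 0.29, adjusted p = 0.00242), and Fgf21 5.15 CPM from 3 counts (-2.34 ± 0.67, adjusted p = 0.0264, but 0.0502 with DESeq2), while the median of all probes was -1.07 in that library.

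**Figure D4:**
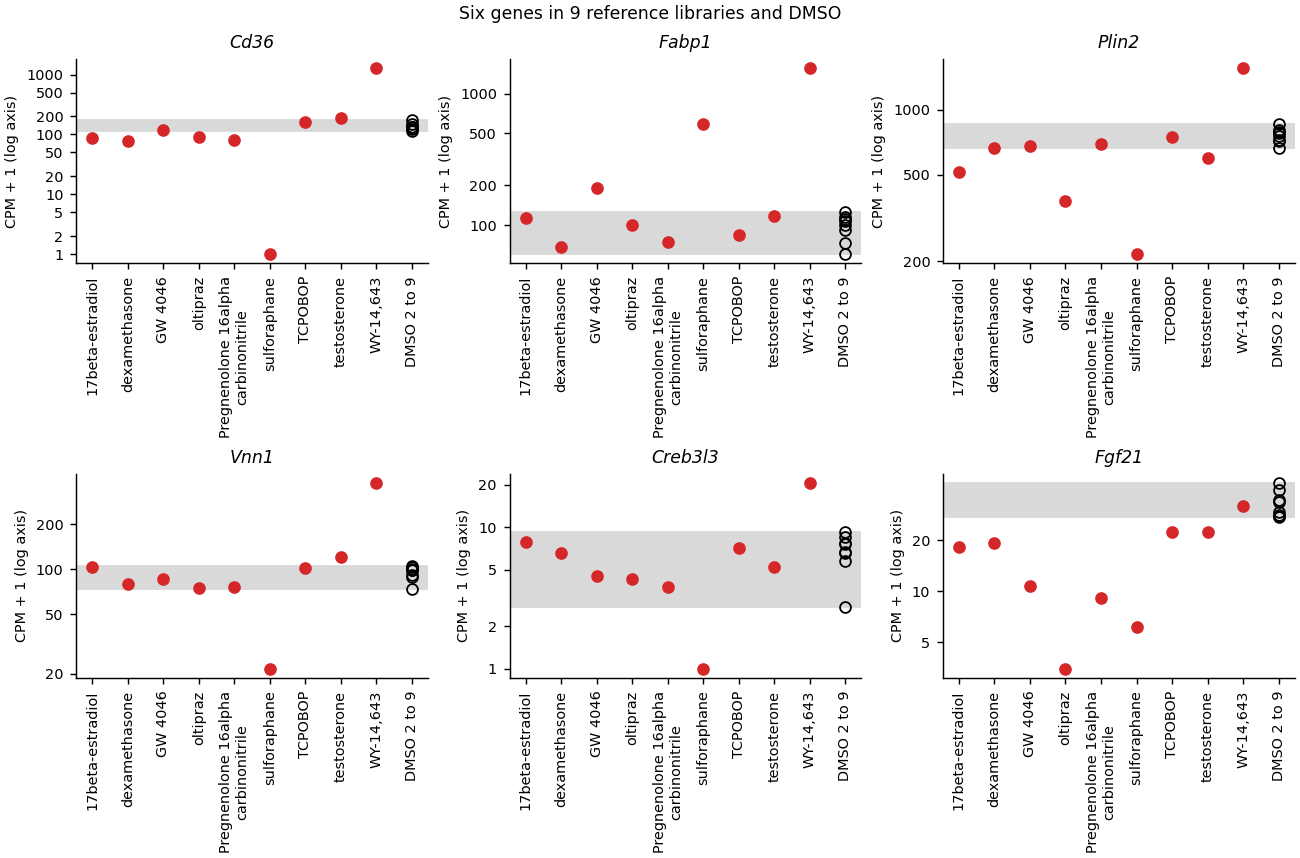
The 6 genes (CPM + 1, log axis) in the 9 reference libraries, 1 point each, and in the 8 DMSO libraries at the right, whose range is the grey band. WY-14,643 stands above the band for Cd36, Fabp1, Plin2, Vnn1 and Creb3l3 but not Fgf21, and sulforaphane is above it for Fabp1 and below it for Cd36, Plin2, Vnn1 and Fgf21.

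Pairs of related chemicals were compared by the difference of their slopes at shared doses, for 4 pairs and 24 differences. PFOA and PFOS, perfluorinated chains that end in a carboxylic and a sulfonic acid group, differed in 3 genes at matched doses of 0.4 to 100 µM. Plin2 had 729 to 1696 CPM with PFOA and 753 to 870.2 CPM with PFOS, a difference of 1.02 ± 0.13 (adjusted p = 0.000102). Fabp1 differed by 1.56 ± 0.31 (adjusted p = 0.00666), with 62.4 to 384 CPM under PFOA and 67.6 to 111 CPM under PFOS, and Creb3l3 by 1.28 ± 0.32 (adjusted p = 0.0285), where 2.46% of all probes were higher with PFOA. Cd36 (1.12, 95% interval 0.45 to 1.78), Vnn1 (0.68, 0.16 to 1.21) and Fgf21 (0.15, -0.27 to 0.58) were not called. PFOS itself had 0 called trends with edgeR or DESeq2, against 2 at an unadjusted p below 0.05, and at 100 µM its Vnn1 was 149 CPM, against 73, 97.5 and 105 CPM in DMSO. Without 100 µM, the Creb3l3 difference was 1.36 and no longer called (adjusted p = 0.0684).

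Cyproconazole and triticonazole, both triazoles with a chlorophenyl group, the first with a cyclopropyl group and the second with a cyclopentanol ring, also differed in 3 genes. Cd36 fell further with cyproconazole, by -2.25 ± 0.38 (adjusted p = 0.00498), and was lower at 5 of the 6 doses, 1.2 µM being the exception with 95.4 CPM under cyproconazole and 83.6 CPM under triticonazole. Plin2 had 224 CPM under cyproconazole and 555 CPM under triticonazole at 100 µM, a difference of -0.91 ± 0.17 (adjusted p = 0.00786), where 3.93% of probes were lower. Fabp1 was higher with cyproconazole, by 0.86 ± 0.23 (adjusted p = 0.0278), where 5.73% were higher, and the call was lost without 100 µM (0.49, adjusted p = 0.302). Vnn1, at 3.73 CPM under cyproconazole and 24.6 CPM under triticonazole at 100 µM, was not called (-0.46, 95% interval -1.18 to 0.26), nor were Creb3l3 (-0.16, -1.51 to 1.20) and Fgf21 (0.12, -0.46 to 0.70).

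With edgeR, 0 of the 6 genes were called between acetochlor and alachlor, chloroacetanilide herbicides that differ in their ring alkyl and alkoxymethyl groups, or between ametryn and simazine, triazines with a methylthio group and a chlorine; at an unadjusted p below 0.05 there were 3 and 4. For acetochlor minus alachlor the intervals were 0.32 to 1.75 for Fabp1, which had 147 CPM with acetochlor and 30.4 CPM with alachlor at 33.3 µM, -1.45 to -0.25 for Fgf21, -0.66 to -0.11 for Plin2 and -0.49 to 0.92 for Cd36. For ametryn minus simazine they were -2.90 to -0.74 for Fgf21, which had 2.94 CPM with ametryn and 22.1 CPM with simazine at 33.3 µM, -1.36 to -0.33 for Vnn1, -1.13 to -0.15 for Plin2 and -1.74 to -0.09 for Cd36. Several of these intervals leave out 0, and with p adjusted over the 4 pairs of each gene alone, 14 of the 24 differences were below the threshold, against 6 over all probes. The share of all probes under that rule was not computed, so the 14 are not read as particular to these genes. Unadjusted p was below 0.05 for 2085 of 11055 probes between PFOA and PFOS and 2066 between acetochlor and alachlor. It was so for 793 between ametryn and simazine and 3191 between cyproconazole and triticonazole.

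**Figure D5:**
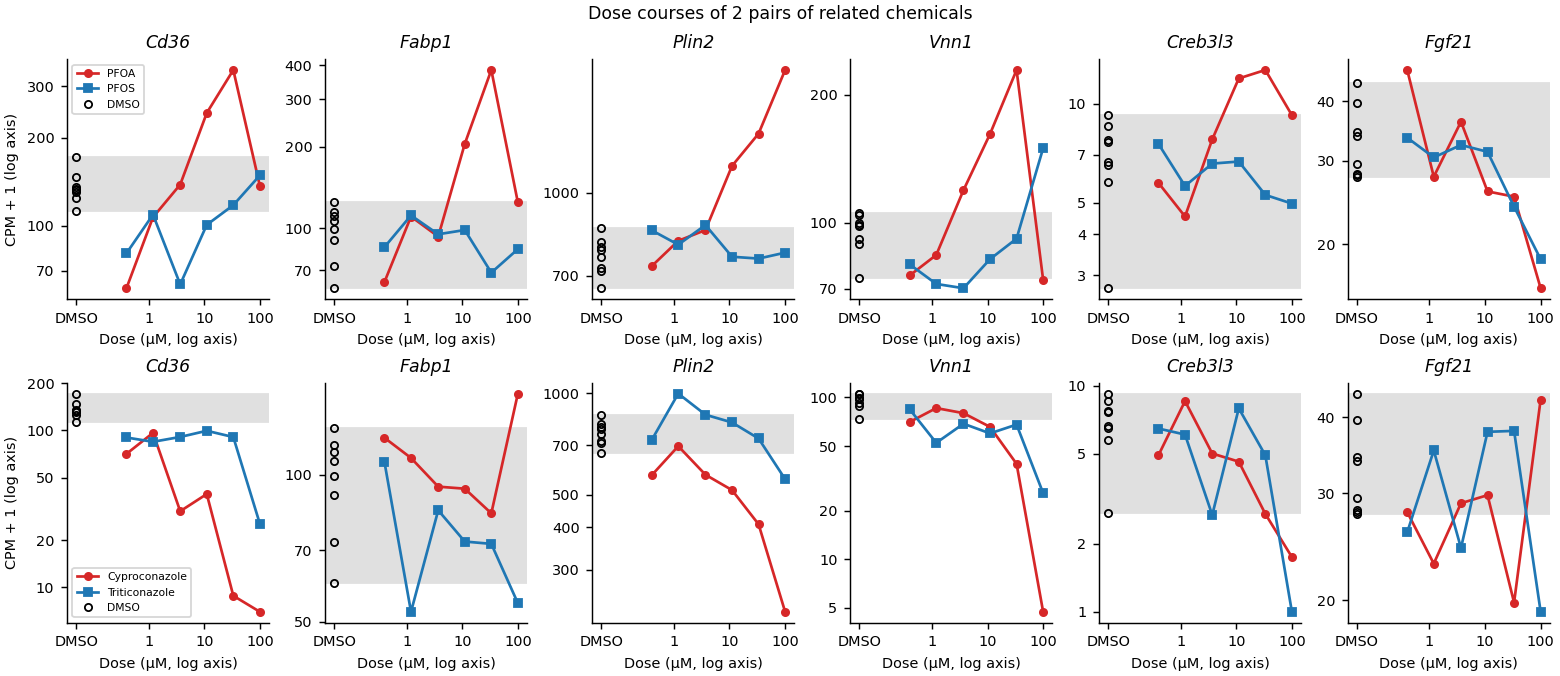
The 6 genes (CPM + 1, log axis) against dose (µM, log axis) for PFOA and PFOS in the upper row and for cyproconazole and triticonazole in the lower row, with the 8 DMSO libraries as open circles and their range in grey. PFOA climbs above the DMSO range in Plin2 at 3 doses while PFOS stays near it, and the Cd36 course of cyproconazole ends at 5.97 CPM, below that of triticonazole at 24.4 CPM.

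Other genes of the same pathways, in lists that leave out the 6 genes, were read from the same fits. With PFOA, 22 of 28 tested genes of peroxisomal and mitochondrial fatty acid oxidation rose, with a median of 1.54 against -0.04 over all probes. Ehhadh, the bifunctional enzyme of peroxisomal oxidation, rose by 5.35 ± 0.50, and Cyp4a1, a fatty acid omega-hydroxylase, by 3.63 ± 0.29 (adjusted p = 3.76e-05). With S-Bioallethrin 19 of 28 rose (median 0.95 against -0.02), Ehhadh by 4.48 ± 0.38, and with WY-14,643 17 of 28 were higher (median 1.72 against -0.01). With dithiopyr 7 of the 28 rose, where 691 of 11055 probes did. In the chemicals with a lower Cd36 or Vnn1 trend, 17 of the 28 fell and 1 rose with cyproconazole (median -0.97 against -0.07), 9 fell with triticonazole, 8 each with oxadiazon and triadimefon, 6 with imazalil and 5 with flusilazole. With ametryn, which also had lower Cd36 and Vnn1 trends, 0 rose and 0 fell with edgeR (1 and 3 at an unadjusted p below 0.05, 1 and 1 with DESeq2), with a median of -0.09 against 0.01. With all 9 DMSO libraries, these counts were 15 for PFOA, 12 for S-Bioallethrin and 4 for cyproconazole, and 0 for triticonazole, oxadiazon, triadimefon, imazalil and flusilazole, where 9 to 14 fell at an unadjusted p below 0.05. Ech1, of unsaturated fatty acid oxidation, fell with cyproconazole, triticonazole, oxadiazon, triadimefon, imazalil and flusilazole, with trends of -1.53 to -0.84.

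Among 19 lipid droplet genes, 5 rose with PFOA, such as Hilpda, an inhibitor of the lipase ATGL (3.58 ± 0.48), and Pnpla2, that lipase (2.25 ± 0.45), but 0 did without the 100 µM library (5 at an unadjusted p below 0.05). Hsd17b13, a droplet protein of hepatocytes, fell with cyproconazole (-1.92 ± 0.22), triticonazole (-1.30 ± 0.21), oxadiazon (-1.08 ± 0.14) and S-Bioallethrin (-0.71 ± 0.15), the last a chemical in which Plin2 rose. Of 16 other genes of fatty acid uptake and binding, at most 4 moved in any of these chemicals, with Slc27a2, a fatty acid transporter, lower under cyproconazole (-1.39 ± 0.36). Of 23 fasting signals, Gdf15, a stress hormone, rose with PFOA (1.80 ± 0.37), cyproconazole (2.24 ± 0.36) and triticonazole (0.99 ± 0.25), while Fgf21 rose in none of them. Of 16 genes of the integrated stress response, 6 rose with cyproconazole, where 645 of 11055 probes rose, and 5 with PFOA, where 285 did, but 1 of the 16 rose with PFOA without the 100 µM library. The trends of Ddit3, which encodes CHOP, were 2.74 ± 0.37 with cyproconazole and 1.26 ± 0.15 with PFOA. With ametryn, Asns, asparagine synthetase, fell by -1.72 ± 0.22, and Pck1, the first enzyme of gluconeogenesis, rose by 2.51 ± 0.32.

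The genes whose levels ran most like each member over 191 libraries (all but DMSO replicate 1, Pearson r of log2 CPM, a description, since the libraries share depth, plate and profile) were compared by name. Vnn1 ran most like Adtrp (0.906 and 0.868 for its probes), and Acot4, a peroxisomal acyl-CoA thioesterase, was among the 3 probes most like Creb3l3 (0.722). Plin2 ran most like Eci1 (0.794), an enzyme of unsaturated fatty acid oxidation, Slc34a2 (0.791), a phosphate transporter, and Ech1 (0.759), and Cd36 most like Hfe2 (0.834), hemojuvelin. Fabp1 ran most like Cyp4a2 (0.724) and Fgf21 like Acaca (0.674), acetyl-CoA carboxylase. Between members, r was 0.706 for Plin2 with Vnn1 and 0.693 for Vnn1 with Creb3l3, but 0.061 for Fabp1 with Cd36 and -0.149 for Fabp1 with Fgf21.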

How the data were processed

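TempO-Seq probe counts were used as deposited by the authors, 1 column per library and 1 row per probe; all columns matched a sample by name, with 0 left over. Per the submitters' processing notes reads were aligned with Bowtie, whose version is not given in the sources used here, nor are the build and the probe counting. Targeted probes count 1 short stretch per transcript, so probe efficiency enters every level and levels are not compared between genes. The labels describe the dose steps as log2, while the doses they list fall about 3-fold per step; the listed doses were used.

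Counts were divided by library totals for CPM, and tested with edgeR 4.0.16 in R 4.3.3 (TMM, glmQLFit and glmQLFTest, plate as a factor), separately for each chemical's 6 dose libraries with DMSO replicates 2 to 9. Probes needed 1.741 CPM, 10 counts at the median depth, in 6 of the 192 libraries, which left 11055 for the Benjamini-Hochberg adjustment. Single libraries, reference libraries and pairs of chemicals were fitted the same way; a lone library is assumed to vary as the DMSO libraries do. Alternatives were DESeq2 1.42.0, its size factors, no filter, no plate term, all 9 DMSO libraries, rank of dose, no highest dose, each library left out, and a library score (the direction in which DMSO replicate 5 departs from replicates 4 and 6, over 5530 probes of other genes). Chosen after seeing the data was a second score, the direction in which Bisphenol A at 3.7 µM departs from 0.14 and 1.2 µM. Also chosen then were leaving out libraries with either score above 0.5 (12 for the first, 13 dose libraries for the second), and the same settings for the lists. Fits were tested on simulated data. The sum over probes was not run, since each gene had 1 probe.

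The genes, gene lists and tests were chosen with earlier results of these data known. Named genes were the 6 with a probe, the 3 probes most correlated with each, up to 3 called list genes with the smallest adjusted p in chemicals with 2 or more called members, and marker genes; list genes of the reference libraries and Vmp1, Ndufa5 and Copb2 were added after their values were seen, and 1 gene that the rule names is not reported here. Macrophage, endothelial, stellate and bile duct markers were summed too: in DMSO these were 58.4 to 91.69, 14.18 to 21.49, 50.4 to 87.94 and 25.38 to 53.97 CPM, against 129.2 to 162.6 CPM for adipocyte markers. Intervals and limits of levels in CPM cover counting error only, as reads carry no molecular identifiers. Intervals of log2 changes and of pair differences follow the SE of the edgeR fits, so they also carry the spread between libraries. They can be narrower than the test implies. For Cd36 with GW4046 the interval was -0.80 to -0.04, at an unadjusted edgeR p of 0.056. Promoters were taken from RefSeq tables for GRCr8.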

Additional observations from a re-analysis of the deposited data

Results flagged for a closer look

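DMSO replicate 1 lay far from the other 8 DMSO libraries for 3 of the 6 genes. Its Plin2, 84.5 CPM against 663 to 860.0 CPM in replicates 2 to 9, was lower by a gap that took 0.746 of the range of all 9, where the critical value is 0.493. Vnn1 was the highest there, 236 CPM against 73 to 105 CPM, with a gap of 0.805 of the range, and Fgf21 the lowest, 5.27 CPM against 26.7 to 42.8 CPM, with a gap of 0.571. Chance alone marks about 1 in 20 such groups. The library had 5500637 counts, within the DMSO range of 2876741 to 8513985, and 62172 CPM of hepatocyte markers, above the 37020 to 60170 CPM of the others. Including it left 2 of 27 dose trend calls, Cd36 with cyproconazole and with oxadiazon.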

How the results depend on the processing

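The counts of calls moved with the DMSO libraries and the model. The main counts were 5 higher and 22 lower dose trends, 12 reference calls, 58 single-library calls, 6 pair differences and 187 called genes in the pathway lists. With all 9 DMSO libraries they were 0, 2, 4, 13, 2 and 55. Higher and lower trends numbered 11 and 38 with no plate term, 8 and 7 without the highest doses, 10 and 48 with the library score as a covariate, 10 and 45 with DESeq2, 9 and 37 without libraries of high score, 10 and 39 with the second library score and 12 and 36 with both scores. List genes numbered 81 without the highest doses, 398 with the library score, 310 with DESeq2, 306 with the second score and 328 with both. Without a filter, single-library calls were 92. Leaving out 1 DMSO library gave 3 to 8 higher and 15 to 36 lower trends, 39 to 141 single-library calls, 10 to 15 reference calls and 130 to 284 list genes; leaving out 1 lower dose gave 2 to 5 and 19 to 22 trends. The highest of these came without DMSO replicate 5; the cause was not tested. Of the 27 main trend calls, all were shared by DESeq2, by its size factors, by no filter and by no plate term, 17 by the rank of dose, 9 without the highest doses, 21 with both scores and 22 without libraries of high second score. Over the tried settings no called member changed its direction, and 132 trend, 22 reference and 7 pair values lost their call, against 543, 146 and 83 that kept it. No paired analysis was possible because each chemical has 1 library per dose and a DMSO replicate number is shared with no treated library. Creb3l3, at 5.86 CPM in DMSO, and the shallow sulforaphane library are limited by depth.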
